A study of Homo sapiens with 18 samples.

Results

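Small nucleolar RNA (snoRNA) host genes carry snoRNAs in their introns. Once the introns are spliced out and the snoRNAs are released, the remaining exons form a spliced RNA with short reading frames. Ribosomes that end translation early on such an RNA bring in the UPF1 machinery of nonsense-mediated decay, and the spliced RNAs of these genes are known to be short-lived and to build up when translation or this decay is blocked. The 10 genes described here are known for this behaviour: GAS5, SNHG1, SNHG5, SNHG6, SNHG8, SNHG12, SNHG15, SNHG25, ZFAS1 and EPB41L4A-AS1. They were taken by Ensembl ID from a deposited table of 58676 IDs, and all 10 were in it.

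The study asked which RNAs are bound by SBP2, the protein that recognises the SECIS stem-loop of selenoprotein mRNAs, where UGA is read as selenocysteine. The RNA-binding domain of SBP2 belongs to the L7Ae family, as does that of SNU13, a core protein of box C/D snoRNA particles. Selenoprotein mRNAs are themselves open to nonsense-mediated decay at their UGA codons.

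The cells were HEK293T, a human embryonic kidney line that takes up plasmids readily (the growth protocol names only its parent line). They were transiently transfected with a Flag plasmid (control), with Flag-SBP2, or with Flag-SBP2 and given 100 nM sodium selenite 4 h later. All were lysed at 48 h, so the control had been through transfection of a plasmid like both SBP2 groups, but it did not receive Flag-SBP2. RNA immunoprecipitation (RIP) used anti-Flag magnetic beads for 5 h with washes of up to 500 mM KCl, and an input was set aside from each lysate beforehand. Each of the 6 groups (input and RIP of 3 treatments) held 3 biological replicates, as the series design states.

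All libraries are labelled as polyA RNA, and the snoRNAs inside the introns were not analysed here. Input libraries held 1.51625e+07 to 2.21757e+07 counts and RIP libraries 2.00015e+07 to 2.98875e+07. The 10 host genes together took 0.0957 ± 0.0159% of counts in control inputs and 0.0269 ± 0.00132% in control RIP, and 0.119 ± 0.0114% in SBP2 RIP (SD, n = 3). Levels are given as CPM, counts scaled to a common library size after TMM factors, which correct for composition. A CPM value is a share of its library, so a lower share in RIP does not give the amount of RNA on the beads. The deposited IDs carry no symbols, so HEK293T markers, the transfected gene and lists of other genes (decay factors, snoRNA particle proteins, further host genes) were not analysed here by name.

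In the RefSeq annotation of GRCh38.p14 each of the 10 loci holds at least 1 snoRNA gene, 26 of the box C/D class and 7 of the box H/ACA class in all. Box C/D snoRNAs guide 2′-O-methylation of other RNAs and box H/ACA snoRNAs guide pseudouridylation. GAS5 (ENSG00000234741, chromosome 1, 173863901 to 173869045) holds 10 box C/D genes and 1 box H/ACA gene, and SNHG1 (ENSG00000255717, chromosome 11, 62851978 to 62855885) holds 8 box C/D genes, SNORD22 and SNORD25 to SNORD31. SNHG5 (ENSG00000203875, chromosome 6, 85677007 to 85678733) holds SNORD50A and SNORD50B. ZFAS1 (ENSG00000177410, chromosome 20, 49278178 to 49289260) holds 3 box C/D genes, SNHG12 (ENSG00000197989, chromosome 1, 28578538 to 28582983) holds 1 box C/D and 3 box H/ACA genes, and SNHG6 (ENSG00000245910, chromosome 8, 66921690 to 66925541) holds SNORD87. Box H/ACA genes alone lie in SNHG8 (ENSG00000269893; SNORA24; chromosome 4, 118278762 to 118279823), SNHG15 (ENSG00000232956; SNORA9; chromosome 7, 44983023 to 44986696) and EPB41L4A-AS1 (ENSG00000224032; SNORA13; chromosome 5, 112160526 to 112162501). SNHG25 is the shortest locus, spanning 340 bases with SNORD104 inside (ENSG00000266402, chromosome 17, 64145970 to 64146309).

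Of the 10 loci, 5 overlap another gene apart from snoRNAs. GAS5 overlaps GAS5-AS1 and ZBTB37, SNHG1 overlaps LOC124900306, SNHG6 overlaps MCMDC2, and EPB41L4A-AS1 overlaps EPB41L4A. SNHG12 overlaps TRNAU1AP, whose protein is known to associate with the selenocysteine tRNA. The strand setting of the counting is not given in the sources used here, so reads of such partners may be part of these counts.

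Many snoRNA host genes are transcribed from starts with a pyrimidine tract, like the genes of the translation machinery. RefSeq start-site windows matched 7 of the 10 genes by symbol, and 4 are printed to set the pair of RNAs most recovered with SBP2 (SNHG1, SNHG5) beside a pair whose enrichment over control did not pass the test (SNHG8, ZFAS1). Each window runs 5′ to 3′ from 40 bases before the annotated start to 30 bases from it on, with capitals marking the longest run of C and T found from 10 bases before to 20 bases after the start.
SNHG1: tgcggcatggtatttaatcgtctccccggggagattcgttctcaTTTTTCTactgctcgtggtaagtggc
SNHG5: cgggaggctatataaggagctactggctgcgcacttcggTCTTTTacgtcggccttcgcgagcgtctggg
SNHG8: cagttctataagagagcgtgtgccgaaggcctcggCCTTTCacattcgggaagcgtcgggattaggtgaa
ZFAS1: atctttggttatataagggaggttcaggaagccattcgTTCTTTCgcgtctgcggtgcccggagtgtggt
The windows lie at chr11:62855856-62855925 (minus strand), chr6:85678704-85678773 (minus), chr4:118278722-118278791 (plus) and chr20:49278602-49278671 (plus) of GRCh38.p14. The ZFAS1 window lies inside its locus, which begins at 49278178, and no other start of that locus was searched.

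The run was 7 bases in SNHG1 and ZFAS1, a length reached by 19.3% of 35116 promoters, and 6 bases in SNHG5 and SNHG8, reached by 30.4%. SNHG12 had the longest, at 12 bases (2.51% of promoters), and GAS5 and EPB41L4A-AS1 had 4 (70.7%). The SNHG12 window (chr1:28581844-28581913, minus strand) also lies inside its locus, which ends at 28582983, and no other start there was searched. The letters TATATAA, searched 5′ to 3′ on the strand that reads like the RNA in the 60 bases before the start, were in SNHG5, SNHG12 and ZFAS1, against 0.715% of all promoters. Both features occurred in strongly and in weakly recovered RNAs.

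**Figure D1:**
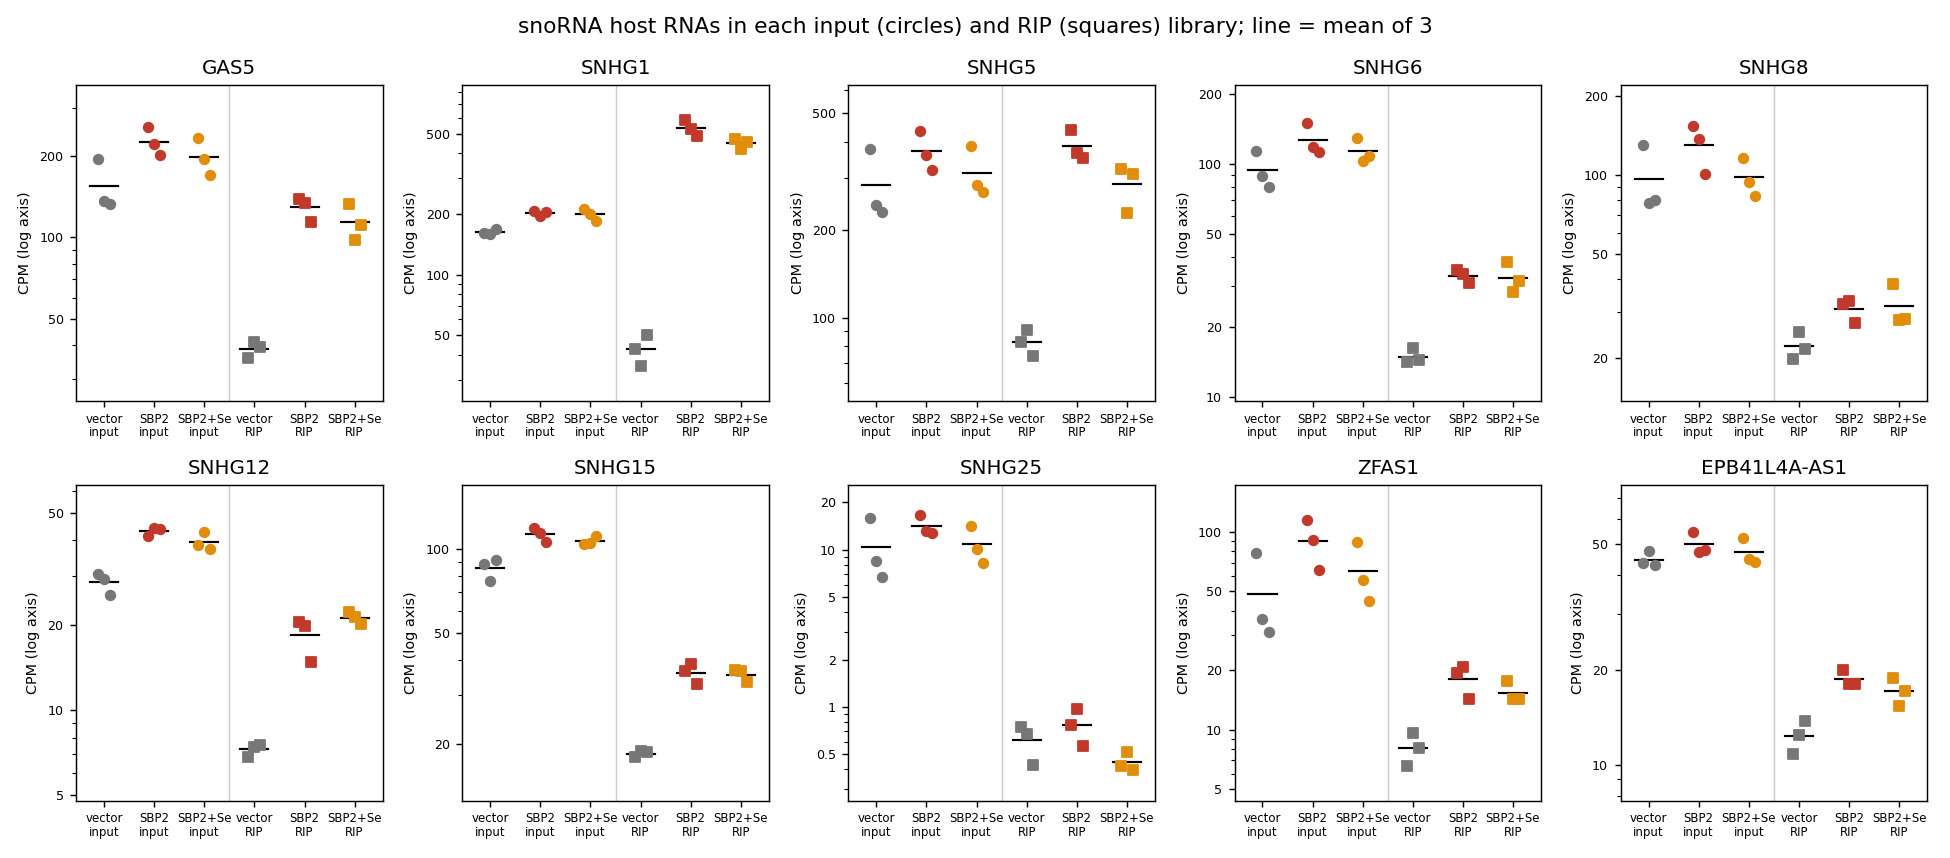
Level of each snoRNA host RNA (CPM, log axis, a separate scale per panel) in every library, by group: circles are inputs, squares are RIP, grey the Flag vector, red Flag-SBP2 and orange Flag-SBP2 with selenite, and lines are means of 3. All control RIP points lie under the control input points, and in the SNHG1 panel the SBP2 RIP points (486 to 583 CPM) stand above every input.

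The Flag control measured what the beads recover without Flag-SBP2, and there all 10 host RNAs were depleted. Relative to input they fell by between 1.78 (SNHG5) and 4.06 (SNHG25) on the log2 scale, and 10 of 10 passed edgeR's quasi-likelihood test at an adjusted p of at most 1.56e-08. Over all 17678 IDs tested, 39.8% passed as lower. The median change was -2.05 over the 10 genes and -0.13 over all IDs. No control RIP library reached the lowest control input for any of the 10, against 39.7% of all IDs with this lower, non-overlapping pattern.

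SNHG25, the RNA of the shortest locus, was the most depleted. Control inputs held 16.0, 8.49 and 6.68 CPM and control RIP 0.740, 0.676 and 0.425 CPM, which rests on 14 to 22 counts per RIP library. Its log2 change of -4.06 (SE 0.31, edgeR adjusted p = 1.46e-11) was the 31st lowest of all IDs tested. SNHG6 held 80.2 to 114 CPM in control inputs and 14.1 to 16.3 CPM in control RIP, a log2 change of -2.66 (SE 0.138, edgeR adjusted p = 1.03e-14).

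GAS5, an RNA named for its rise in growth-arrested cells, lay at 195, 136 and 133 CPM in control inputs and 35.8, 41.0 and 39.3 CPM in control RIP. SNHG1, host of the classical U22 snoRNA cluster, lay at 161, 159 and 168 CPM in control inputs and 42.7, 35.4 and 50.1 CPM in control RIP. SNHG5 lay at 378, 244 and 230 CPM in control inputs and 82.5, 91.2 and 74.0 CPM in control RIP. So without Flag-SBP2 these 3 RNAs were not set apart from the rest: their changes of -1.99, -1.93 and -1.78 were within the range of the other 7 genes or just above it (-4.06 to -1.85).

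With Flag-SBP2 the host RNAs spread apart, and SNHG1 moved to the other side of its input. Its levels were 207, 195 and 204 CPM in SBP2 inputs and 583, 526 and 486 CPM in SBP2 RIP. It rose by 1.40 on the log2 scale (2.63-fold, SE 0.0972, edgeR adjusted p = 4.98e-12), with all 3 RIP libraries above all 3 inputs, a pattern of 33.9% of all IDs. It was the 1 gene of 10 above input, against 30.3% of all IDs tested. Of the counts of the 10 genes, SNHG1 made up 14.9 ± 1.76% in SBP2 inputs and 44.2 ± 0.298% in SBP2 RIP, against 17.3 ± 3.29% in control RIP (SD, n = 3).

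SNHG5 reached the level of its input. SBP2 inputs held 436, 360 and 321 CPM and SBP2 RIP 440, 366 and 352 CPM, and the groups overlapped. Its change was 0.05 (SE 0.163, edgeR adjusted p = 0.794). GAS5 remained below input, at 254, 220 and 200 CPM in SBP2 inputs and 139, 134 and 114 CPM in SBP2 RIP (log2 -0.80, SE 0.136, edgeR adjusted p = 1.53e-05).

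Altogether 8 of the 10 RNAs were lower in SBP2 RIP than in input, against 31.7% of all IDs tested. Among them SNHG12 lay at -1.23, EPB41L4A-AS1 at -1.42, SNHG15 at -1.64, SNHG6 at -1.93, SNHG8 at -2.08, ZFAS1 at -2.32 and SNHG25 at -4.19 on the log2 scale, with the largest edgeR adjusted p among the 8 being that of GAS5. SNHG25 was the 16th lowest of all IDs, on 16 to 26 counts per RIP library.

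With selenite SNHG1 was again the 1 gene above input. Its inputs held 212, 200 and 185 CPM and its RIP libraries 468, 422 and 457 CPM, a log2 change of 1.18 (2.26-fold, SE 0.0968, edgeR adjusted p = 1.13e-10). SNHG5 held 387, 284 and 269 CPM in inputs against 322, 228 and 311 CPM in RIP, with overlapping groups (log2 change -0.13, SE 0.164, edgeR adjusted p = 0.52). The other 8 were lower in RIP than in input, from -0.81 for GAS5 to -4.57 for SNHG25, against 31.6% of all IDs as lower and 30.7% as higher.

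**Figure D2:**
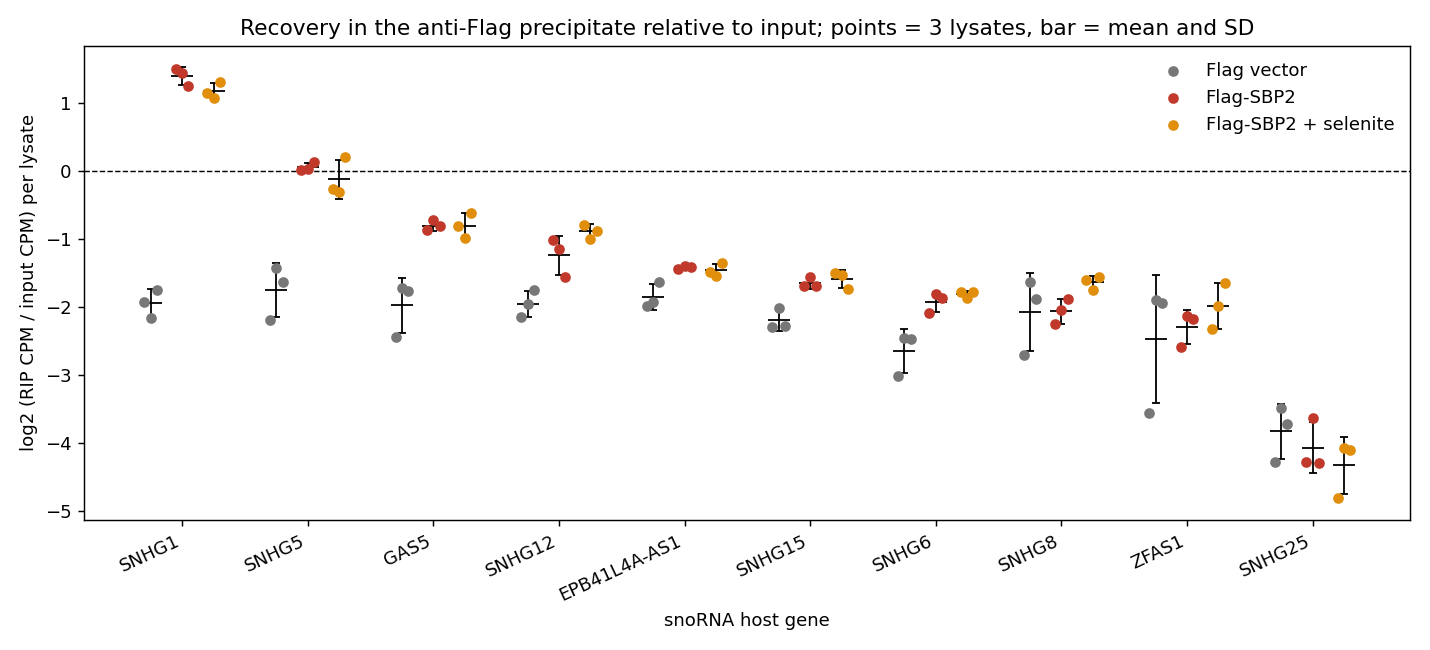
Log2 ratio of RIP to input CPM for each host RNA in each lysate, ordered by the mean in Flag-SBP2 lysates; points are 3 lysates per treatment, bars the mean and SD, and the dashed line marks equal shares in RIP and input. SNHG1 lies between -2.16 and -1.74 in control lysates and between 1.25 and 1.49 in Flag-SBP2 lysates, while SNHG25 stays below -3 in every lysate.

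Enrichment over control sets the RIP-to-input ratio in SBP2 lysates against the same ratio in control lysates. It is therefore relative to what the beads recover alone. Here 7 of the 10 host RNAs were enriched and 0 depleted, against 21.7% of all IDs as enriched and 18.1% as depleted (0 of the 10 lay lower at an unadjusted edgeR p under 0.05, and 0 were depleted by DESeq2 or limma voom). The median over the 10 genes was 0.64 on the log2 scale, and over all IDs 0.02. SNHG1 stood far above the others, at a 10.0-fold enrichment.

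Each treatment gave 3 RIP-to-input ratios per gene on the log2 scale. For SNHG1 they were -1.92, -2.16 and -1.74 in control lysates and 1.49, 1.43 and 1.25 in SBP2 lysates. The difference was 3.32 (SE 0.14, edgeR adjusted p = 1.36e-15), the 54th largest of 17678 IDs. All 3 SBP2 lysates lay above all 3 control lysates, as for 7 of the 10 genes and 27.3% of all IDs.

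SNHG5 went from -2.19, -1.42 and -1.63 in control lysates to 0.02, 0.02 and 0.13 with SBP2, an enrichment of 1.83 (3.57-fold, SE 0.234, edgeR adjusted p = 6.85e-07). GAS5 went from -2.44, -1.72 and -1.76 to -0.87, -0.72 and -0.81, an enrichment of 1.19 (2.28-fold, SE 0.195, edgeR adjusted p = 2.28e-05). Both were enriched over control without passing above input.

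The remaining enrichments were smaller. SNHG12 was enriched by 0.73 (SE 0.159), SNHG6 by 0.73 (SE 0.185) and SNHG15, whose RNA is known to turn over quickly, by 0.56 (SE 0.124), at edgeR adjusted p-values of 0.000612, 0.00264 and 0.000795. EPB41L4A-AS1 was enriched by 0.43 (SE 0.151, edgeR adjusted p = 0.0258), and this call depended on single libraries: it was lost without control input replicate 2, SBP2 input replicates 2 or 3, control RIP replicates 1 or 2, or SBP2 RIP replicate 1 (adjusted p from 0.0501 to 0.107). It was also lost with DESeq2 (0.073), DESeq2's size factors in edgeR (0.0766), library size alone (0.146) or no low-count filter (0.275).

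SNHG8, ZFAS1 and SNHG25 did not pass. SNHG8 differed by 0.03 (SE 0.246), ZFAS1 by 0.26 (SE 0.386) and SNHG25 by -0.13 (SE 0.493), at edgeR adjusted p-values of 0.942, 0.633 and 0.865. The spread was wide for ZFAS1, an RNA that starts beside ZNFX1 in the antisense direction: its control ratios ran from -3.56 to -1.90, and control inputs from 31.2 to 78.3 CPM. When RIP libraries were compared without inputs, SNHG8 (log2 0.46, edgeR adjusted p = 0.00129) and ZFAS1 (log2 1.15, edgeR adjusted p = 1.82e-07) were higher with SBP2, and 9 of the 10 were called, against 31.6% of 17139 IDs as higher. Without control input replicate 1, the control input with the highest ZFAS1 level, the enrichment of ZFAS1 was -0.25 (adjusted p = 0.549) and that of SNHG8 -0.25 (0.371).

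**Figure D3:**
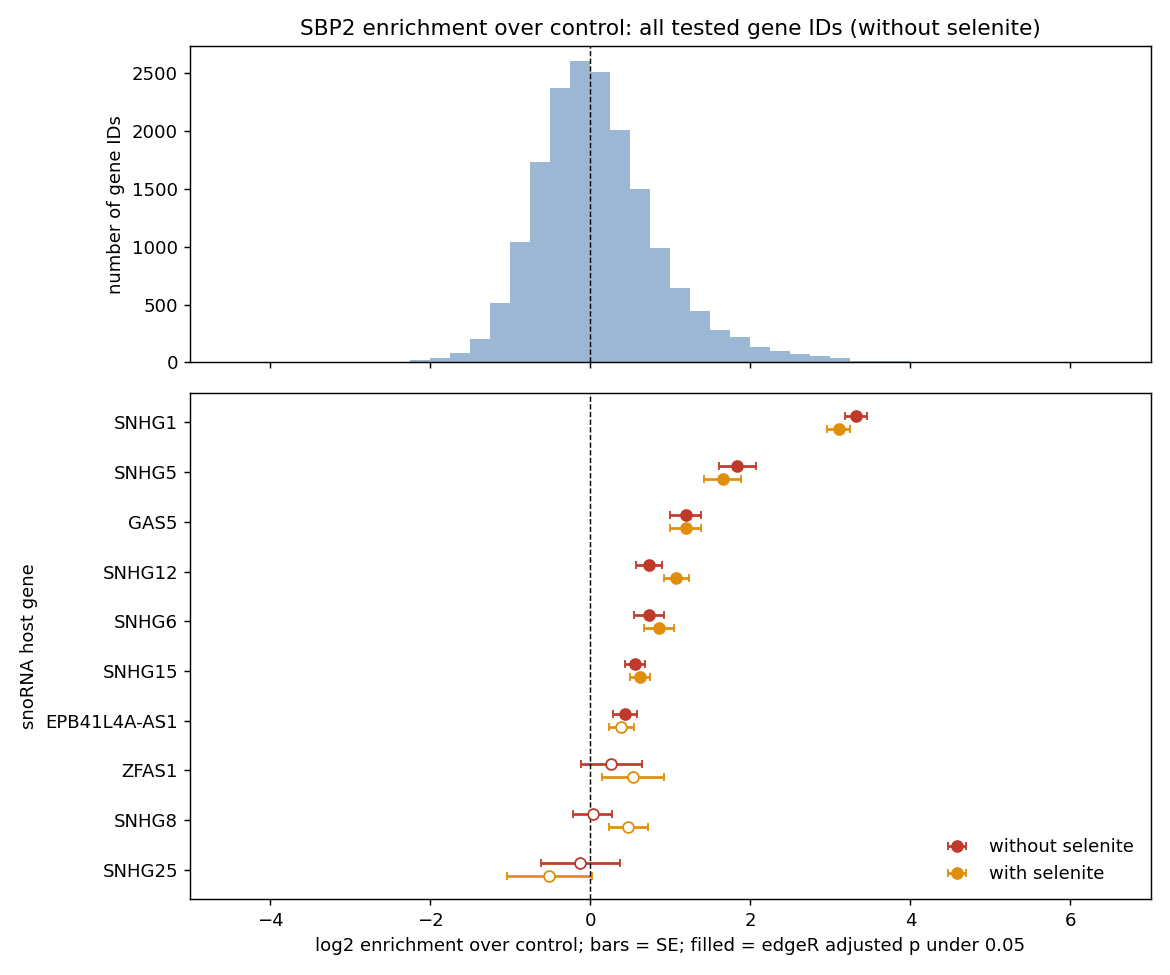
Top, number of gene IDs by log2 enrichment over control without selenite (all 17678 tested IDs, bins of 0.25); bottom, the 10 host RNAs on the same axis, red without and orange with selenite, bars the SE, filled points passing an edgeR adjusted p of 0.05. SNHG1 lies in the far right tail at 3.32 and 3.10, while SNHG8, ZFAS1 and SNHG25 have open points.

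The control lysates are shared with the comparison made with selenite, so the second comparison is no independent repeat. There 6 of the 10 were enriched and 0 depleted, against 19.3% and 14.4% of all IDs (0 of the 10 lay lower at an unadjusted edgeR p under 0.05, and 0 were depleted by DESeq2 or limma voom). In 7 of the 10 genes all 3 lysates exceeded all 3 control lysates, as in 24.4% of all IDs. SNHG1 was enriched by 3.10 (8.58-fold, SE 0.14, edgeR adjusted p = 6.48e-15), SNHG5 by 1.65 (SE 0.234), GAS5 by 1.19 (SE 0.195), SNHG12 by 1.07 (SE 0.159), SNHG6 by 0.85 (SE 0.186) and SNHG15 by 0.61 (SE 0.125), with edgeR adjusted p-values of at most 0.000789. EPB41L4A-AS1 (0.39, edgeR adjusted p = 0.0535), ZFAS1 (0.53, 0.319), SNHG8 (0.47, 0.151) and SNHG25 (-0.51, 0.505) did not pass. The lysate taken as a block brought EPB41L4A-AS1 past the threshold (adjusted p = 0.0307), as did leaving out control input replicate 3, control RIP replicate 3, selenite input replicate 1 or selenite RIP replicate 2 (adjusted p from 0.0237 to 0.0478).

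The scaling moved all IDs together. With library size alone the median of all IDs went from 0.02 to -0.13 without selenite and from 0.03 to -0.10 with it, and the split of enriched and depleted IDs turned from 3844 and 3201 to 3007 and 4368, and from 3416 and 2540 to 2670 and 3582. DESeq2 gave 3316 and 3900, and 2785 and 3432. In control RIP against input the split of higher and lower IDs went from 5571 and 7039 to 6600 and 5952. Relative to the median of all IDs, the median of the 10 genes stayed between 0.54 and 0.63 without selenite, between 0.65 and 0.71 with it, and between -1.98 and -1.87 in control RIP, over the tools, scalings, filters and fits tried with inputs and all replicates.

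The effect of selenite on recovery was taken from lysates with SBP2 alone, with against without it. By edgeR 0 of the 10 host RNAs passed (0 of 17678 IDs, 0%), and DESeq2 and limma voom also called 0 of the 10. SNHG12 alone had an unadjusted edgeR p under 0.05: its log2 RIP-to-input ratios were -1.24 ± 0.29 without and -0.89 ± 0.10 with selenite (SD, n = 3), and its difference was 0.34 (95% interval 0.02 to 0.66, edgeR adjusted p = 0.989). For SNHG1 the difference was -0.22 (95% interval -0.50 to 0.06) and for SNHG5 -0.18 (95% interval -0.66 to 0.30). All 3 selenite lysates exceeded all 3 lysates without it in 2 of the 10 genes (SNHG8 and SNHG12) and 5.18% of all IDs. SNHG8 had the largest difference of the 10, at 0.44 (95% interval -0.06 to 0.95, edgeR adjusted p = 0.989). The interval for SNHG25, -1.46 to 0.69, was the widest, with 8 to 14 counts per RIP library with selenite.

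SBP2 inputs against control inputs gave the level of these RNAs in the lysate. All 10 lay higher with SBP2 by the fitted change, from 0.17 (EPB41L4A-AS1) to 0.90 (ZFAS1) on the log2 scale, whereas 48.6% of all IDs did. The median was 0.44 over the 10 genes and -0.01 over all IDs. Only SNHG12 passed the test adjusted over all IDs, against 0.361% of IDs called higher. In bulk lysates more cells that express an RNA and more RNA per cell cannot be told apart.

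SNHG12 lay at 30.5, 29.2 and 25.7 CPM in control inputs and at 41.5, 44.1 and 44.0 CPM in SBP2 inputs, so the groups did not overlap. It rose by 0.61 (1.53-fold, SE 0.105, edgeR adjusted p = 0.0174). The call was lost without control input replicate 2 or 3 or any 1 SBP2 input (adjusted p from 0.0502 to 0.122). Of the 10 genes, 4 had SBP2 inputs that all exceeded all control inputs, against 7.86% of all IDs.

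SNHG15 (0.41, SE 0.0943), SNHG1 (0.32, SE 0.0826) and GAS5 (0.55, SE 0.149) came next, with edgeR adjusted p-values of 0.0574, 0.0935 and 0.105. Before adjustment, 8 of the 10 were higher at an edgeR p under 0.05, against 6.1% of all IDs. In control inputs the highest library was 2.51 times the lowest for ZFAS1 and 2.39 times for SNHG25, but 1.06 times for SNHG1. Replicate 1 gave the highest control input for 7 of the 10 genes, the highest SBP2 input for 9 and the highest selenite input for 8, against 38.0%, 33.9% and 36.4% of all IDs. Without control input replicate 1, 8 of the 10 genes passed as higher with SBP2, and the share of all IDs called higher rose as well, to 2.35%. The part of this library in the result was not tested further.

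Taken by replicate number, 9 of the 10 genes were higher in 3 of 3 SBP2 inputs than in the same-numbered control inputs, against 20% of all IDs. The deviations of same-numbered inputs correlated at 0.17 to 0.53 over abundant IDs but at 0.089 to 0.28 over all IDs tested in the inputs, so whether the numbers pair these libraries depends on the IDs taken. With the number as a block, 9 of the 10 passed as higher, all but EPB41L4A-AS1, with edgeR adjusted p-values from 3.12e-07 (ZFAS1) to 0.00873 (SNHG25). Over all IDs 7.42% were then called higher.

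With selenite, all 10 inputs again lay above control by the fitted change, from 0.03 (SNHG8) to 0.48 (SNHG12), against 46.5% of all IDs. By edgeR 0 of the 10 passed (0.307% of all IDs as higher), 4 had an unadjusted p under 0.05 (all higher, against 4.83% of all IDs), DESeq2 called 1 and limma voom 0. The labels do not say that replicate numbers pair these inputs with the control inputs. A pairing was assumed only for the fit with the replicate number as a block, from the correlation of same-numbered libraries. With the replicate number as a block 6 of the 10 passed, all higher, when 2.26% of all IDs were called higher. The 6 were GAS5, SNHG1, SNHG6, SNHG12, SNHG15 and ZFAS1 (edgeR adjusted p from 0.000614 to 0.00877). In 7 of the 10 genes the selenite input was higher than the same-numbered control input in 3 of 3 pairs, against 18.9% of all IDs. All 3 selenite inputs exceeded all 3 control inputs in 3 of the 10, against 6.51% of all IDs. Without control input replicate 1 and without a block, GAS5 and SNHG12 passed (0.348% of all IDs as higher). The direction was not stable for 3 genes: without selenite input replicate 1 the changes of SNHG5, SNHG8 and SNHG25 were -0.03, -0.11 and -0.15, and the median of the 10 went from 0.29 to 0.13. Leaving out control input replicate 2 or 3 also put SNHG8 and SNHG25 below 0.

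Set against SBP2 inputs without selenite, all 10 lay lower by the fitted change, from -0.50 (ZFAS1) to -0.02 (SNHG1), against 49.7% of all IDs. SNHG1 was at 0.0018 with library size alone and at 0.02 without selenite input replicate 3. By edgeR 0 passed (0.00602% of all IDs as higher and 0% as lower), 1 had an unadjusted p under 0.05 (SNHG8), and DESeq2 and limma voom called 0. With the replicate number as a block SNHG8 (-0.41, edgeR adjusted p = 0.0274) and ZFAS1 (-0.53, edgeR adjusted p = 0.0184) were lower, against 0.193% of all IDs. In 8 of the 10 genes the selenite input was lower than the same-numbered SBP2 input in 3 of 3 pairs, against 17.1% of all IDs. These comparisons share the SBP2 and control inputs with those above.

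**Figure D4:**
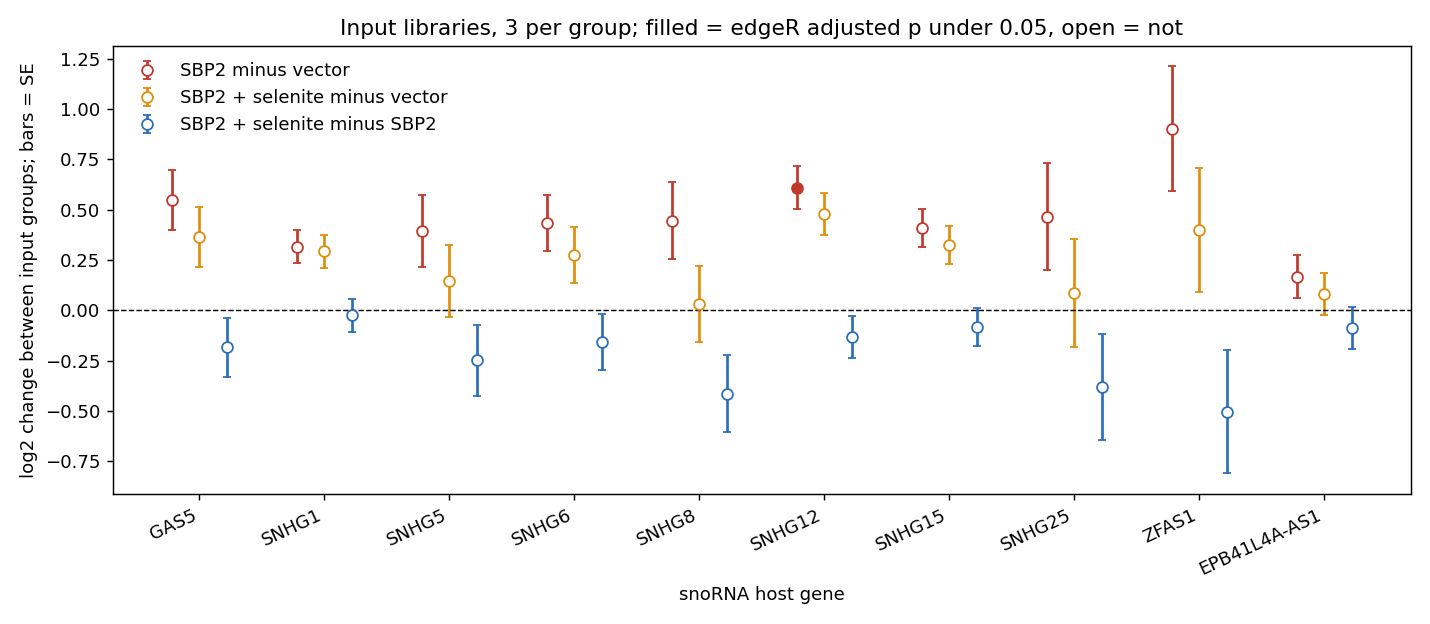
Fitted log2 change between input groups for each host RNA, with the SE: red SBP2 minus vector, orange SBP2 with selenite minus vector, blue SBP2 with selenite minus SBP2; filled points passed an edgeR adjusted p of 0.05. The red and orange points of all 10 genes lie above 0 and the blue points below 0, and SNHG12 has the single filled point, at 0.61.

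Across the 18 libraries SNHG1 followed another pattern than the rest. Its log2 CPM correlated with the mean of the other 9 genes at r = 0.26, SNHG5 at 0.74, SNHG25 at 0.82, and the remaining 7 at 0.94 to 0.99. SNHG1 was most like SNHG5 (r = 0.83) and GAS5 (r = 0.60). These values describe libraries that fall into input and RIP groups, so the group differences set most of them. Among 13195 other IDs with a mean log2 CPM of at least 1, ENSG00000241837 (r = 0.994) and ENSG00000169599 (r = 0.993) were most like the mean of the 10 genes.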

How the data were processed

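The authors deposited whole-number counts per Ensembl gene ID for 18 libraries. Trim Galore 0.6.6, STAR 2.7.6a, featureCounts 2.0.1 and GRCh38 (hg38) are named in the submitters' processing notes. The sources used here do not give the annotation, strandedness or multi-mapping rules. Samples were grouped by title.

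The 10 IDs and the tests were chosen with earlier results of these data known. All 10 passed filterByExpr (minimum count 10, minimum total 15), leaving 17678 IDs to test in the 18 libraries and 16616 in the inputs. Counts were tested with edgeR 4.0.16 in R 4.3.3 (TMM, two-sided quasi-likelihood, Benjamini-Hochberg over all IDs, threshold 0.05) in a group-means model over 18 libraries for RIP and over the 9 inputs for input comparisons. Intervals of 95% use the test's degrees of freedom, and standard errors derive from its statistic. Ratios per lysate are differences of log2 CPM with a prior count of 2. DESeq2 1.42.0, limma 3.58.1, other scalings, filters, fits, blocks and left-out libraries were alternatives. The main edgeR tests were also run on simulated counts. These held no lysate or replicate structure, so the simulation could not check the blocked fits. All 10 genes were tested and counted in every comparison, but in several comparisons values are printed for only some of them. The 2 IDs most like the 10 genes by correlation were also named.

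An input and RIP of 1 treatment and number come from 1 lysate per the labels' protocols (correlations of deviations 0.0012 to 0.19 over 17678 IDs). Over the 13205 more abundant IDs these correlations ran from -0.13 to 0.39, with both ends in selenite lysates. Same-numbered inputs correlated at 0.17 to 0.41 between selenite and control and 0.15 to 0.26 between selenite and SBP2, all over the limit of 0.1. They were therefore also fitted with the replicate number as a block, while the main fit held no block. This limit cannot settle the pairing, since input and RIP of 1 lysate also correlated below it. The labels do not state such a pairing. Between SBP2 and control the range was 0.089 to 0.28 over 16616 IDs and 0.17 to 0.53 over 13205 IDs with a mean log2 CPM of at least 1, so both fits are given. Loci and start-site sequences are from RefSeq (GRCh38.p14), matched by symbol. Its 59792 genes carry 0 Ensembl IDs, so no other ID was named.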

Additional observations from a re-analysis of the deposited data

Results flagged for a closer look

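SNHG1 was singled out because its recovery lay on opposite sides of the input in 2 treatments, with a tested difference: RIP was below input in the control (log2 -1.93) and above it with SBP2 (1.40) and with SBP2 and selenite (1.18), both past edgeR's threshold. The difference from the control was 3.32 without and 3.10 with selenite. It was the only 1 of the 10 genes to meet this description. Groups of 3 are too small for a test of outlying libraries.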

How the results depend on the processing

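The counts of host RNAs called in control RIP (10), SBP2 RIP (9), selenite RIP (9) and the selenite effect on recovery (0) were the same under every tool, scaling, filter, fit, block and left-out library tried. Enrichment over control gave 6 to 7 of 10 calls with and without selenite in the settings that kept the inputs, also when single libraries were left out. The setting that compared RIP libraries without inputs gave 9. It does not separate recovery from the level in the lysate. No called value of the 10 genes changed sign. The input comparisons moved. For SBP2 against control inputs, 1 of 10 passed, against 4 with DESeq2, 2 with upper-quartile factors, 2 with library size only, 2 with a minimum count of 50, 3 with all 18 libraries in the fit, 7 with no low-count filter, 9 with the replicate block, and 0 to 8 without single libraries. The share of all IDs called higher moved with it, from 0.361% to 0.788% with DESeq2, 1.17% with no filter, 1.3% with all 18 libraries and 7.42% with the block. It was 0.385% with upper-quartile factors, 0.361% with library size only and 0.377% with a minimum count of 50. Without single libraries it ran from 0.1% to 2.35%. For selenite against control inputs, 0 passed, against 1 with DESeq2, 1 with upper-quartile factors, 2 with all 18 libraries, 3 with no low-count filter, 6 with the replicate block, and 0 to 2 without single libraries. The share of all IDs called higher went from 0.307% to 0.548% with DESeq2, 0.355% with upper-quartile factors, 0.511% with no filter, 0.815% with all 18 libraries and 2.26% with the block. Without single libraries that share ran from 0.125% to 0.348%. For selenite against SBP2 inputs, 0 passed, against 1 with no low-count filter and 2 with the replicate block. Of all IDs, 0.0694% were called lower with no filter and 0.193% with the block. The cause was not tested. All other input settings kept the count. Outside the input comparisons, fitting a block changed only the call of EPB41L4A-AS1 with selenite, as given above. Depth limits SNHG25, with 8 to 26 counts per RIP library.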
